A study of Mus musculus with 2 samples.

Results

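The genes described here are 5 sensors of microbial ligands, Ifih1 and Dhx58 of the cytosol and Tlr3, Tlr9 and Tlr11 of the endosome. They were chosen by name, as the rows with these symbols in a table of 4898 gene rows, and each symbol stood on 1 row. The table came from poly(A) RNA of the mouse line DC1940 (strain C57BL/6). Its cells are CD8α+ dendritic cells, which specialise in cross-presenting engulfed antigen to CD8+ T cells. There was 1 group, wild-type cells transduced with an empty vector and then given pIC, an artificial double-stranded RNA used as a TLR3 agonist, in 2 libraries. The labels give no duration of stimulation for these libraries, and all cells came from a single line. The values are FPKM, fragments scaled to transcript length and to library size, so that levels can be set side by side between genes of different length. The authors deposited 1 FPKM value per gene for the group, so no value per library, SD or test can be given, and library depth is unknown.

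The name of the table describes its rows as differentially expressed between unstimulated and stimulated cells. The direction and the size of each difference, and the test behind them, were not analysed here, and the levels below are those of the stimulated group. All 5 sensors are listed because the rule took them from the table. Of 21900 RefSeq protein-coding genes, 4864 (22.2%) had a row, and nothing about the sensors is read from that share.

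Cells detect foreign nucleic acids at separate sites. Toll-like receptors (TLRs) of the endosome have their ligand-binding part inside the vesicle and meet material that has been taken up, and TLR3 passes its signal to the adaptor TRIF, whereas TLR9 and TLR11 use MyD88. RIG-I-like receptors are helicases of the cytosol that bind RNA of viruses replicating in the cell, and RIG-I and MDA5 signal through the adaptor MAVS on mitochondria. Both routes lead to kinases that activate IRF and NF-kB transcription factors and so to type I interferon. CD8α+ dendritic cells are known for high TLR3, with which they respond to RNA of virus-infected cells that they have engulfed.

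The 5 sensors differ in ligand. Ifih1 encodes MDA5, a receptor of long double-stranded RNA. Dhx58 encodes LGP2, a relative that binds double-stranded RNA but lacks the signalling domains of MDA5. Tlr3 encodes a receptor of double-stranded RNA, and Tlr9 one of DNA with unmethylated CpG. Tlr11 encodes a mouse receptor known for binding profilin, a protein of protozoan parasites, so by textbook knowledge it is not a nucleic acid sensor and shares only the endosomal site with Tlr3 and Tlr9.

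RefSeq promoter windows, 250 bases before to 50 after the transcript start on GRCm38.p6, were available for Ifih1, Tlr3, Tlr9 and Tlr11. They are shown because interferon and NF-kB, the outputs of these receptors, act on genes through short promoter motifs. The motif searches covered both strands for the core of the interferon-stimulated response element (ISRE), which is GAAA, any 2 bases and GAAA, for a form of the NF-kB site, which is GGG, any 2 bases and TTTCC, and for the AP-1 site TGANTCA, where N is any base. Each sequence is written 5′ to 3′ on the strand of its gene, with the motif in capitals, and positions count from the RefSeq start. An exact ISRE core lay at bases 33 to 42 counted from the RefSeq start of Ifih1, and 122 to 113 bases before the start of Tlr11. An exact NF-kB form lay 211 to 202 bases before the start of Tlr3, and an exact AP-1 site 58 to 52 bases before the start of Tlr9. For Ifih1 and Tlr3, 30 bases around the match are given, and for Tlr9 and Tlr11 the 250 bases before the start.
Ifih1 ISRE core (chr2:62646206-62646235, minus strand): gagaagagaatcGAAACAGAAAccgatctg
Tlr3 NF-kB form (chr8:45410572-45410601, minus strand): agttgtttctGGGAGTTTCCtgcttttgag
Tlr3 ISRE core with 1 mismatch (chr8:45410420-45410449, minus strand): agtgaatggcTTTCACTTTGtttagacaca
Tlr9 AP-1 (chr9:106222348-106222597, plus strand): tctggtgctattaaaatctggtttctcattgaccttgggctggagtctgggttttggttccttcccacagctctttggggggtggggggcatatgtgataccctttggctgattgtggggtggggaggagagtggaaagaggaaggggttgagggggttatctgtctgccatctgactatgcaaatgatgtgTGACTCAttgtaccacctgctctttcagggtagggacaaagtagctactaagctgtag
Tlr11 ISRE core (chr14:50357664-50357913, plus strand): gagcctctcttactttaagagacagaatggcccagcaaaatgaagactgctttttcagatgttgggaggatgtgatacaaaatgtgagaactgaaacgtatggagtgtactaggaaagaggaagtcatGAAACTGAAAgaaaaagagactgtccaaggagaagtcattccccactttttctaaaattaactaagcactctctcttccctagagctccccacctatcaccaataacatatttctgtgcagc

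Among 32851 RefSeq promoter windows of the same length, 3.44% held an exact ISRE core, 1.63% the NF-kB form and 7.81% the AP-1 site. With 1 mismatch allowed, all 4 sensors held an ISRE core, as did 35.4% of all windows, so the looser matches are common. An AP-1 site with at most 1 mismatch was in 3 of the 4 sensor windows and in 69.4% of all windows, and the NF-kB form in 1 of the 4 and in 25.4% of all. The Ifih1 and Tlr11 windows then each held 3 more ISRE-like matches, and the Tlr9 window held 1. Those of Ifih1 lay between 113 and 89 bases before the start, each overlapping its neighbour. Those of Tlr11 lay between 137 and 103 bases before the start, and some overlapped each other and the exact core. The matches are therefore not all separate stretches. The Tlr3 ISRE-like stretch, 59 to 50 bases before the start, reads on the opposite strand of the gene. The Tlr3 row began 159 bases upstream of the RefSeq start used for the window. Counted from the start of the row, the NF-kB form began 52 bases upstream, whereas the ISRE-like stretch lay inside the row's interval. The GENCODE M21 transcript matched to the row starts further upstream still, and the NF-kB form lies within its first exon, so the place of this match depends on the annotated start. The same holds for Ifih1, where both GENCODE M21 transcripts matched to the row start downstream of the exact ISRE core. That core lies inside the transcript by the RefSeq start, but before both GENCODE starts. A match describes letters in a window and does not show that a factor binds there.

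**Figure D1:**
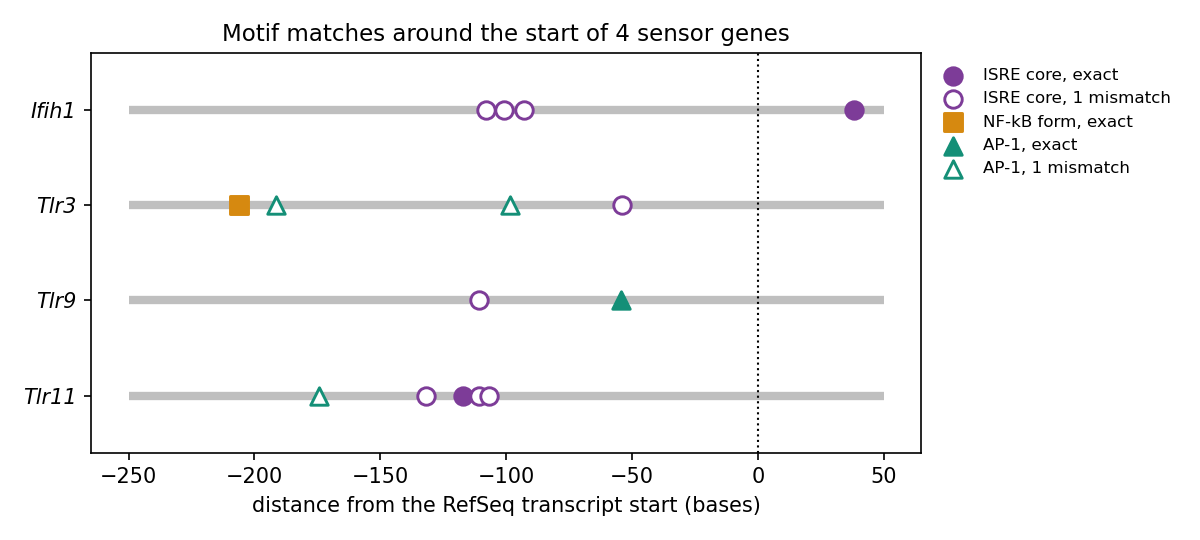
Positions of motif matches in the RefSeq promoter windows of Ifih1, Tlr3, Tlr9 and Tlr11, in bases from the transcript start (dotted line); grey bars span the 250 bases before and 50 after it. Filled symbols are exact matches and open symbols have 1 mismatch: each gene has 1 exact match, and that of Ifih1 is the one that lies after the RefSeq start.

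The cytosolic RNA sensors stood at nearly the same level. Dhx58 had 221 FPKM and Ifih1 217 FPKM, a ratio of 1.02. Dhx58 ranked 199 and Ifih1 205 from the top of the 4898 rows, so that 95.9% and 95.8% of rows lay below them. These levels were 22.9 and 22.4 times the median row, which had 9.68 FPKM. The third RIG-I-like receptor gene, Ddx58, which encodes RIG-I, a sensor of RNA with a 5′ triphosphate, was also listed but stood lower, at 48.1 FPKM. The Dhx58 level was 4.60 times and the Ifih1 level 4.50 times that of Ddx58.

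The endosomal receptors were spread far more widely. Tlr9 had 174 FPKM and ranked 274, Tlr3 had 85.7 FPKM and ranked 542, and Tlr11 had 4.36 FPKM and ranked 3159. Tlr9 and Tlr3 thus lay above 94.4% and 88.9% of the listed rows, whereas Tlr11 lay above 35.5% of them, at 0.451 times the median row. The Tlr9 level was 2.03 times that of Tlr3 and 39.8 times that of Tlr11. The receptor of pIC in the endosome, Tlr3, was therefore not the highest of the endosomal genes, and the listed receptor of DNA was.

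**Figure D2:**
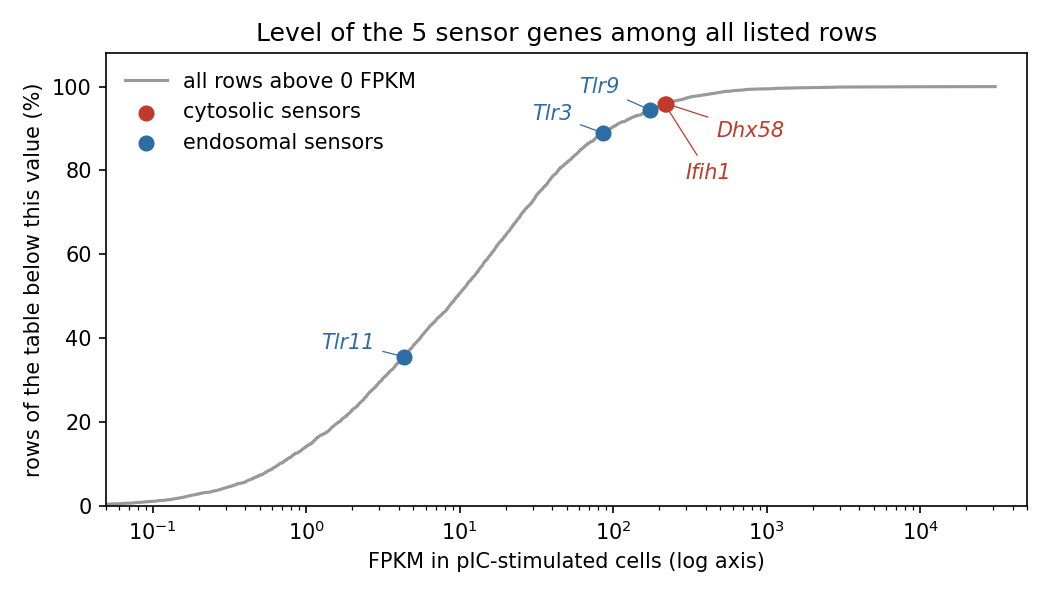
FPKM of each sensor gene in pIC-stimulated cells (x, log axis) against the percentage of table rows below it (y); the grey curve is all rows above 0 FPKM. Dhx58 and Ifih1 (red, cytosolic) lie nearly on top of each other at 221 and 217 FPKM, Tlr9 and Tlr3 (blue, endosomal) at 174 and 85.7 FPKM, and Tlr11 at 4.36 FPKM lies below the middle of the curve.

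Set against each other, both cytosolic sensors stood above all 3 endosomal ones. The geometric mean was 219 FPKM for the cytosolic genes and 40.2 FPKM for the endosomal genes, a difference of 2.45 in mean log2 FPKM. Tlr11 made up most of that difference, since without it the difference in mean log2 FPKM was 0.84. The summed level was 438 FPKM for the cytosolic and 264 FPKM for the endosomal genes, a ratio of 1.66. For the receptors of double-stranded RNA alone, Dhx58 stood at 2.58 times and Ifih1 at 2.53 times the Tlr3 level. Dhx58 and Ifih1 were closer to Tlr9, at 1.27 and 1.25 times its level. The order of levels was Dhx58, Ifih1, Tlr9, Tlr3, Tlr11, and without values per library no neighbours in it can be said to differ beyond their spread. The order did not extend to Ddx58, the remaining RIG-I-like receptor gene, since Tlr9 stood at 3.61 times and Tlr3 at 1.78 times its level. In a bulk sample, a higher level in each cell and a larger share of expressing cells cannot be told apart.

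The fragments behind each value depend on transcript length. Ifih1 is the longest gene, with a row of 50.5 kb on chromosome 2 (62595793 to 62646255, mm10, minus strand) that carries accessions of 2 transcripts, 5470 bases in 16 exons and 3616 bases in 15 exons. Their coding lengths are 3075 and 2928 bases. The Dhx58 row spans 9388 bases on chromosome 11 (100694884 to 100704271, minus strand), with a transcript of 2412 bases in 13 exons and a coding length of 2034 bases. Tlr3 lies on chromosome 8 (45395665 to 45410539, minus strand), with a 4407-base transcript in 7 exons. Tlr9 on chromosome 9 (106222598 to 106226876, plus strand) and Tlr11 on chromosome 14 (50357914 to 50363663, plus strand) each have 2 exons, and their transcripts of 3478 and 3207 bases lie mostly in the second. The coding lengths of Tlr3, Tlr9 and Tlr11 are 2715, 3096 and 2793 bases.

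**Figure D3:**
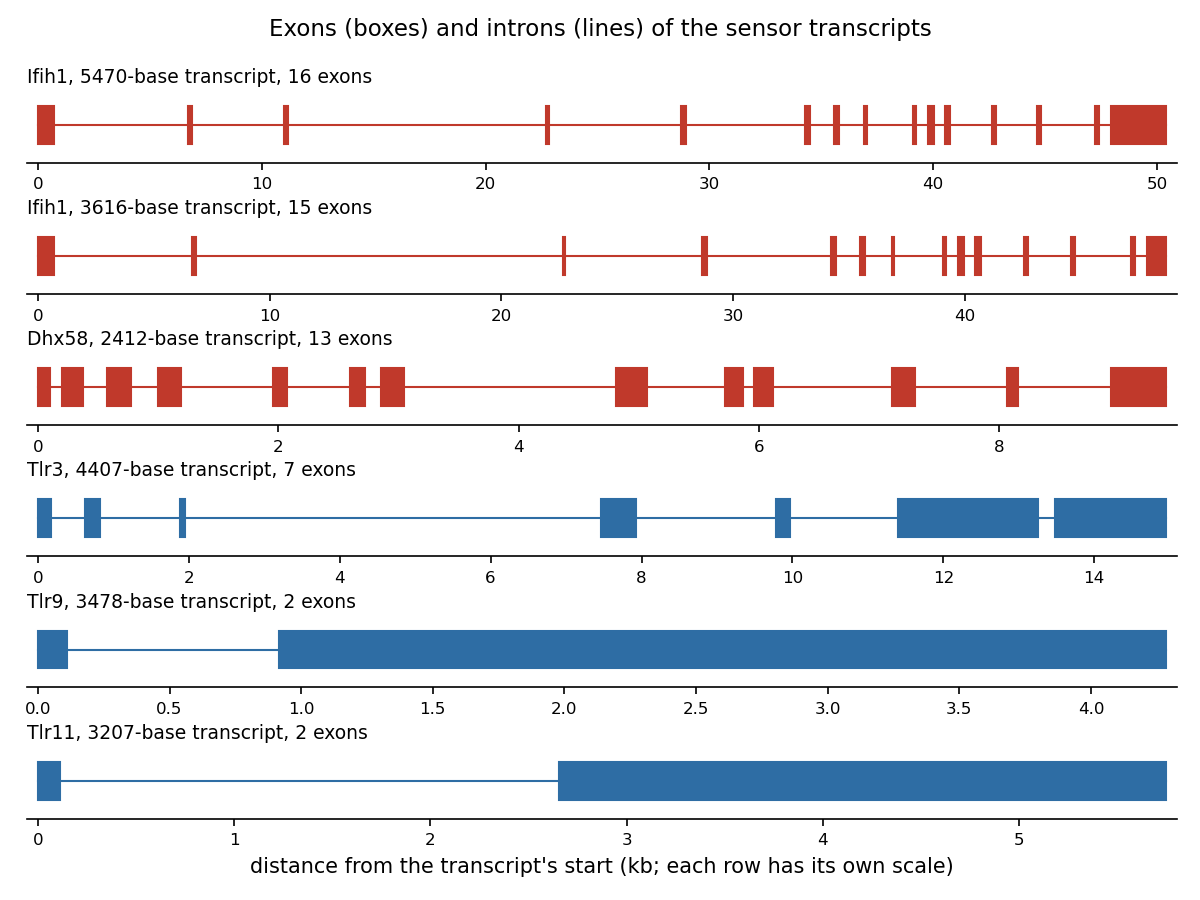
Exons (boxes) and introns (lines) of the GENCODE M21 transcripts matched to the accessions in each row, by distance from the transcript's start in kb, each on its own scale. The cytosolic helicase genes (red) have 13 to 16 exons, whereas Tlr9 and Tlr11 (blue) have 2 exons each and Tlr3 has 7.

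Level times transcript length gives the approximate number of fragments behind a value in every 1000000 mapped. It was 534 for Dhx58 and between 783 and 1185 for Ifih1, depending on which of its 2 transcripts the fragments came from. It was 604 for Tlr9 and 377 for Tlr3. For Tlr11 it was 14.0, so its value rests on far fewer fragments than the others. Since Dhx58 is the shortest of these transcripts, its level matched that of Ifih1 although fewer fragments stood behind it.

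Most of each sensor's sequence was its own. No stretch of 50 bases of the Ifih1, Tlr9 or Tlr11 transcripts was found in a transcript of another GENCODE M21 gene. For Dhx58, 4.06% of such stretches were shared with the antisense gene Dhx58os, and for Tlr3 1.56% with the antisense gene Gm45542. The exons of these antisense genes overlapped 141 bases of Dhx58 exons and 381 bases of Tlr3 exons. Those overlaps were counted over all GENCODE M21 transcripts of each sensor gene, so the part within the matched transcript can be smaller. No source used here states whether the authors' counting used strand, so reads of these overlaps cannot be assigned to the sensor alone. At 25 bases, 2.51% of the Tlr3 stretches were shared with transcripts of 61 other genes. The share was 5.07% for Dhx58, with Dhx58os alone, 0.0366% for Ifih1, with 2 genes, and 0 for Tlr9 and Tlr11.

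Of all protein-coding genes, 22.2% were listed, and the counts of listed genes that follow stand beside that share. Of the 3 RIG-I-like receptor genes, 3 were listed, with a median of 217 FPKM. Of the 12 mouse TLR genes, 6 were listed, with a median of 15.5 FPKM. These were 5 endosomal receptors and the surface receptor Tlr1. Ifih1 and Dhx58 among the 3, and Tlr3, Tlr9 and Tlr11 among the 6, were chosen by the rule from listed rows. Their listing was certain, so neither family count is read against the 22.2%. The other listed genes of the families were Ddx58, Tlr1, Tlr12 and Tlr13. Tlr12, which in mice acts with TLR11 as a receptor of profilin, had 22.3 FPKM, 5.11 times the Tlr11 level. Tlr13, a mouse receptor of bacterial ribosomal RNA, had 8.77 FPKM. Tlr7, which encodes a receptor of single-stranded RNA, and its relative Tlr8 were not listed, so they have no level here. Among the surface TLRs and co-receptors, 3 of 9 genes were listed, Ly96 at 6.02 FPKM, Tlr1 at 4.89 and Cd14 at 0.329. Tlr3 stood at 17.5 times the Tlr1 level.

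Of 18 genes for the adaptor and cofactors of RIG-I-like receptors, 11 were listed (61.1%, beside 22.2% of all protein-coding genes), with a median of 65.5 FPKM. The phosphatase subunit gene Ppp1ca, whose enzyme dephosphorylates RIG-I and MDA5, had 282 FPKM, the helicase gene Ddx3x 190 FPKM and the antiviral RNA-binding protein gene Zc3hav1 120 FPKM. Mavs, the adaptor of MDA5, was not listed. Of 16 inhibitors of the pathway, 4 were listed (25%, near the 22.2% of all protein-coding genes), with a median of 41.8 FPKM, and they were led by the ubiquitin ligase gene March5 at 174 FPKM, Nlrc5 at 65.8 FPKM and the autophagy gene Atg12 at 17.8 FPKM.

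For the endosomal receptors, 4 of 16 genes of folding, transport and cleavage were listed (25%, again near the 22.2% of all protein-coding genes), with a median of 54.6 FPKM. The chaperone gene Hsp90b1, whose product folds TLRs, had 244 FPKM, the peptide and histidine transporter gene Slc15a3 59.4 FPKM and the AP-3 subunit gene Ap3d1 49.8 FPKM. Unc93b1, whose product carries these receptors to the endosome, was not listed. Of 17 TLR adaptors and kinases, 10 were listed (58.8%, beside the same 22.2%), with a median of 17.0 FPKM. Pik3ap1, an adaptor linking TLRs to phosphoinositide 3-kinase, had 306 FPKM, Myd88, the adaptor of TLR9 and TLR11, 107 FPKM, and Tab2, which couples TRAF6 to the kinase TAK1, 59.7 FPKM. Ticam1, which encodes the TLR3 adaptor TRIF, was not listed. A gene that was not listed may be expressed at any level, since the table holds only the rows the authors selected.

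**Figure D4:**
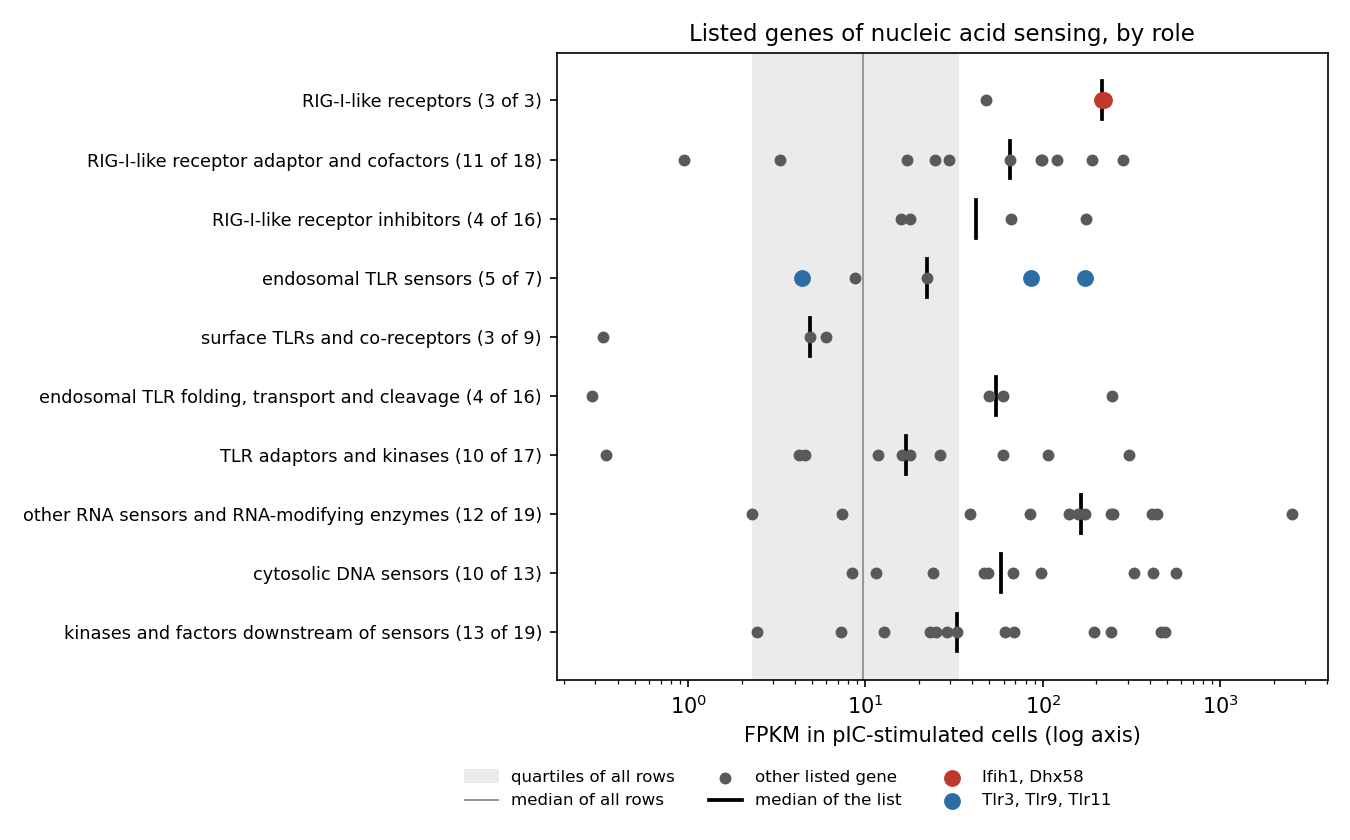
FPKM (x, log axis) of every listed gene of 10 lists of nucleic acid sensing, with the number listed of the number in the list; black bars are list medians, and the grey band and line are the quartiles and median of all 4898 rows. Ifih1 and Dhx58 (red) overlap at the right of the RIG-I-like receptors, whereas Tlr3, Tlr9 and Tlr11 (blue) are spread over the endosomal TLRs, with Tlr11 the lowest of them.

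Some other genes of nucleic acid sensing stood at higher levels than the 5 sensors. Of 19 other RNA sensors and RNA-modifying enzymes, 12 were listed (63.2%, beside 22.2% of all protein-coding genes), with a median of 165 FPKM. They were led by Oasl1 at 2552 FPKM, Ifit2 at 439 FPKM and Oasl2 at 413 FPKM. Oasl1 belongs to the oligoadenylate synthetase family, and IFIT2 is an interferon-induced RNA-binding protein. Of 13 cytosolic DNA sensing genes, 10 were listed (76.9%, beside the same 22.2%), with a median of 58.4 FPKM. Samhd1, a dNTP hydrolase that restricts viruses, had 416 FPKM and Ifi204, a DNA-binding protein gene of the PYHIN family, 328 FPKM. Trex1, a DNA exonuclease, had 561 FPKM, but its row pools the accessions of 2 genes and the value is not that of Trex1 alone. Reads shared between close copies in the OAS, IFIT and PYHIN families were not measured, so these values are uncertain.

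Downstream of both routes, 13 of 19 kinases and transcription factor genes were listed (68.4%, beside 22.2% of all protein-coding genes), with a median of 33.0 FPKM. The interferon regulatory factor genes Irf7, Irf5 and Irf1 had 487, 466 and 241 FPKM. The sensors were left out as each other's neighbours. By level alone, the other listed genes of these lists nearest to Dhx58 and Ifih1 were Irf1 and Ifit1, both at 241 FPKM. Those nearest to Tlr9 were March5 at 174 FPKM and Ifit3 at 172 FPKM. Tlr3 was nearest to Adar, an RNA-editing enzyme gene, at 84.1 FPKM and to Trim25, a ubiquitin ligase gene of the RIG-I pathway, at 97.4 FPKM. Tlr11 was nearest to Tab3 at 4.24 FPKM and Irak4 at 4.53 FPKM. With 1 value per gene, no likeness of pattern across samples could be computed.

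Against the labelled cell type, 12 of 14 markers of CD8α+ dendritic cells were listed (85.7%, beside 22.2% of all protein-coding genes). They stood at 5.62 to 387 FPKM, with Xcr1 the highest and Tlr3 among them. The listing of Tlr3 was fixed by the rule. The rows are described as differing with stimulation, so being listed does not by itself identify a cell type. Of 11 markers of other dendritic cells, 5 were listed (45.5%, beside the same 22.2%). Of these, Bst2, also an interferon-induced gene, had 602 FPKM and the others at most 5.41 FPKM. Of 8 macrophage and monocyte markers, 6 were listed (75%), at 0.329 to 33.2 FPKM. Of 7 lymphocyte markers 1 was listed (14.3%), Lck, whose row pools 2 genes and had 1.22 FPKM. With 75% beside 85.7%, the listed share does not set CD8α+ dendritic cells apart from macrophages and monocytes.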

How the data were processed

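Per the file headers, the authors deposited FPKM values. The tools named are Cufflinks 2.2.1, TopHat2 2.1.0 and FastQC 0.11.5, with build mm10, per the submitters' processing notes. No source used here states how the 2 libraries were combined or the rows selected. There were 0 columns of other samples in the table, and 1 row was not used here. The sensors and gene lists were chosen with earlier results of these data known. No test was possible, so levels, ranks, ratios and listed shares are descriptions. For 10 pathway lists (137 distinct genes), the 3 listed genes with the highest FPKM and every listed TLR or RIG-I-like receptor were named. So were the 2 genes nearest to each sensor in log2 FPKM, leaving out the sensors themselves. Adaptors and transport genes that were not listed were named after the table had been seen. Of symbols on 2 rows the higher value was used. Starts in the table count from 0, and 1 was added. Transcripts came from GENCODE M21 through its RefSeq accessions, and promoters from RefSeq (GRCm38.p6), with entries for 4 of the 5 sensors. A planned comparison of protein sequences and the authors' fold changes were not used here. Ranking and motif search were tested on simulated data. Computations ran under Python 3.11.15 with SciPy 1.17.1, numpy 2.4.6, pandas 2.3.3 and matplotlib 3.10.9.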

Additional observations from a re-analysis of the deposited data

How the results depend on the processing

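No paired analysis was possible because the table gives a single value per gene for a single group, and for the same reason no library could be left out. The FPKM of the 5 sensors was the same with rows matched by accession. Taking the lower value of repeated symbols could not change it, as each sensor stands on 1 row. With only rows at 1 FPKM or more, the percentage of rows below Dhx58 was 95.3, below Ifih1 95.1, below Tlr9 93.5, below Tlr3 87.1 and below Tlr11 24.9. With rows at 5 FPKM or more it was 93.4, 93.2, 90.9 and 82.1 for the first 4, and Tlr11 was under the floor. With rows of 1 protein-coding gene, which are 4719 of the 4898, it was 95.9, 95.8, 94.4, 88.8 and 35.2 for the 5 in the same order; so few rows were dropped that a large shift was not possible.

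The cytosolic minus endosomal difference of 2.45 in mean log2 FPKM was positive under all 9 alternatives. Both cytosolic sensors stood above every endosomal one. The sign was therefore fixed in advance with the pseudocount, with any sensor left out and with Tlr3 alone, and only the size could change. The difference was 2.35 with a pseudocount of 1 FPKM, 0.73 from the sums, 2.99 without Tlr3, 3.50 without Tlr9, 0.84 without Tlr11, 2.46 without Ifih1 and 2.43 without Dhx58. In 2 alternatives chosen after seeing the data it was 2.33 for all listed RIG-I-like receptors over all listed endosomal TLRs and 1.35 for Ifih1 and Dhx58 over Tlr3.

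List medians at a floor of 1 FPKM were 5.46 FPKM for surface TLRs and co-receptors, 59.4 for TLR folding and transport, 17.9 for TLR adaptors and kinases and 81.5 for RIG-I-like receptor cofactors. At a floor of 5 FPKM these were 6.02, 59.4, 26.3 and 97.4, and those of endosomal TLRs, other RNA sensors and downstream factors 54.0, 172 and 46.9; surface TLRs and co-receptors then had 1 gene listed. With 1 mismatch allowed, 4 sensors held an ISRE core and 3 an AP-1 site, against 35.4% and 69.4% of all windows. Library depth is not known, so its limits were not measured.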
